A study of Mus musculus with 6 samples.

Results

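The lysosomal hydrolases and lysosomal membrane proteins were examined in mouse fibroblasts treated with TGFβ. The set holds 32 named genes, found by their symbols, of the 25140 genes in the RNA-seq count table, and all 32 had enough reads to be tested among 14334 genes. Primary cardiac fibroblasts had been isolated from adult C57BL/6 hearts, kept in DMEM with 25 mM glucose and used at passage 1. Serum was lowered to 1% FBS, and 16 h later 3 samples received vehicle and 3 samples 10 ng/ml TGFβ for 24 h, so that both groups share the low serum and high glucose. The methods give a longer time in low serum than the labels, which were followed here. The labels give no genetic change for either group. The labels and the methods name cardiac fibroblasts, whereas the results text of the study names MEFs for the same RNA-seq samples. The methods call the replicates biological, but the labels do not tie them to animals or cultures, and the p-values measure only the spread between these libraries.

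Lysosomes are acidic organelles in which about every class of macromolecule is broken down. Soluble hydrolases are tagged with mannose 6-phosphate in the Golgi and delivered to the lysosome, the V-ATPase pumps in protons, and heavily glycosylated membrane proteins such as LAMP1 and LAMP2 line the limiting membrane. TFEB and the related MiT/TFE factors activate many of these genes through a promoter motif called the CLEAR element. In fibroblasts, cathepsins degrade collagen that has been taken up from the matrix, and inherited loss of single hydrolases causes lysosomal storage diseases.

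With TGFβ most of the lysosomal genes that changed fell, by modest amounts. Of the 32 members, 17 were lower (53.1%, against 20.1% of all genes tested), 4 were higher (12.5%, against 20.5%) and 11 did not pass the test (edgeR's quasi-likelihood test, Benjamini-Hochberg adjusted p under 0.05). In all, 21 members were called (65.6%), against 40.7% of all genes tested. The libraries of both groups did not overlap in 20 members (62.5%), against 53.3% of all genes tested. The median log2 fold change of TGFβ over vehicle was -0.22 over the members and -0.0013 over all genes tested. The lowest member was *Hexa*, at 61.7% of its vehicle level, and the highest was *Ctsc*, at 173%. No member changed by more than 1 on the log2 scale.

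Most of the lower calls, and none of the higher ones, held in every alternative fit. Of the 17 lower calls, 14 held in all 13 alternative fits, and of the 4 higher calls 0 did. The 4 higher calls were reduced to 1 without vehicle a or without vehicle b, and to 2 without any of vehicle c, TGFβ a, TGFβ b or TGFβ c. Since RNA was measured in bulk, fewer cells of a type and less RNA per cell cannot be told apart.

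**Figure D1:**
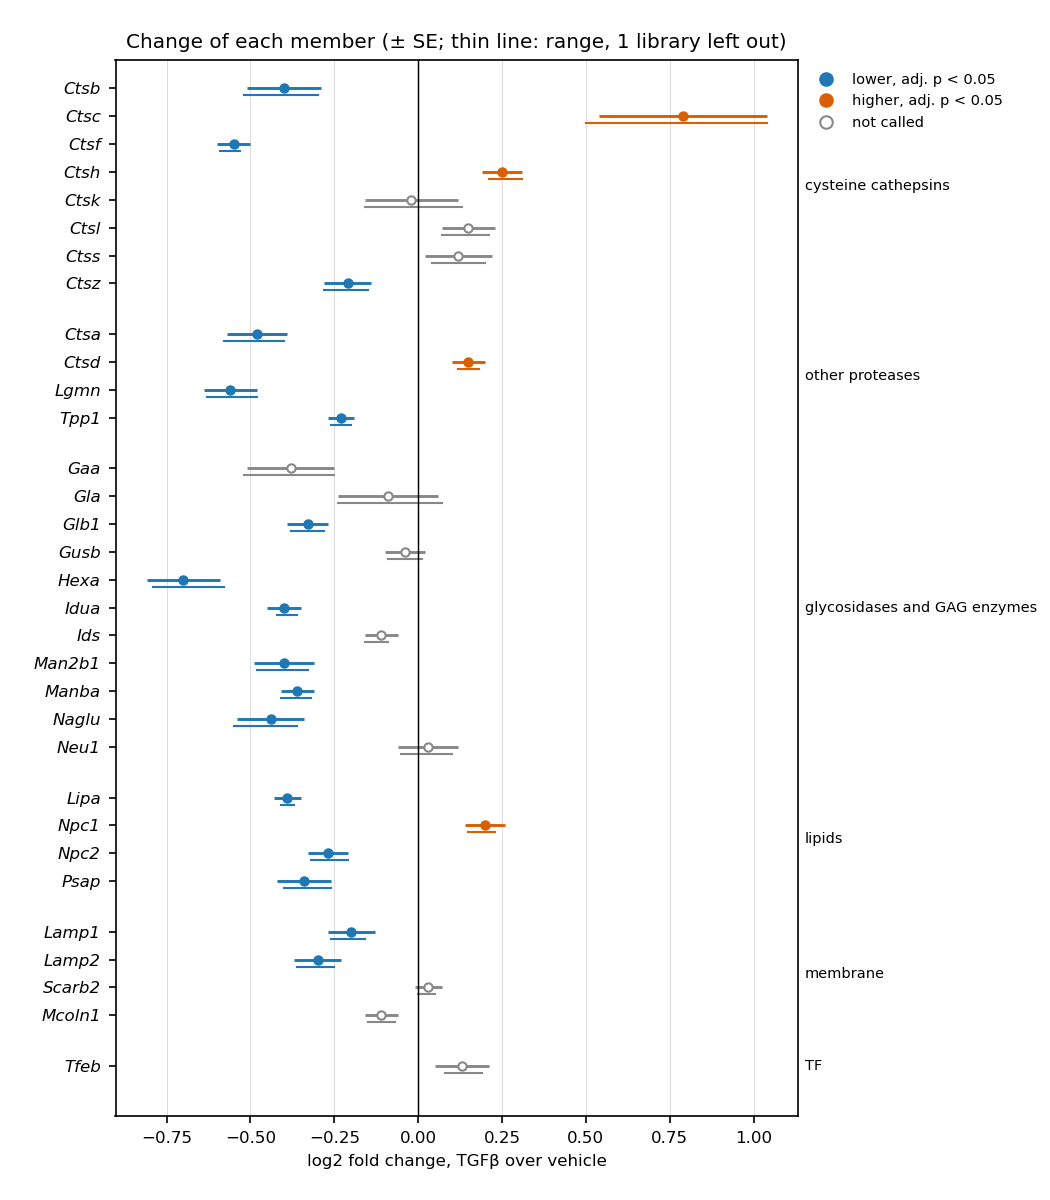
Change of the 32 members on the log2 scale, as TGFβ over vehicle, ordered by role. Points and thick bars give the edgeR estimate ± SE (3 libraries per group), thin lines the range of the estimate with 1 library left out, and colour the call at an adjusted p of 0.05. The 17 lower members lie between -0.20 and -0.70, and the bar of *Ctsc*, at 0.79, is the widest.

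Total counts were 29296570 to 31072338 with vehicle and 27851677 to 28894151 with TGFβ. *Acta2* and *Postn*, known targets of TGFβ, rose by 1.03 and 1.55 on the log2 scale (edgeR adjusted p of 6.93e-05 and 6.49e-05). The 12 fibroblast markers summed to between 51168 and 64458 CPM, where CPM are counts per 1000000 of the scaled library size. Markers of other cells were lower but present. The 18 macrophage and leukocyte markers summed to 310, 330 and 443 CPM in vehicle a, b and c and to 270, 293 and 398 CPM in TGFβ a, b and c, with *Ptprc* at 2.52 to 4.42 CPM. The 10 endothelial markers summed to 503, 566 and 780 CPM with vehicle and to 454, 505 and 637 CPM with TGFβ. The 10 cardiomyocyte markers summed to 27.7 to 60.4 CPM, with *Myh6* at 0.0701 to 0.536 CPM. Smooth muscle and pericyte markers (8 genes) summed to 273 to 387 CPM and mesothelial markers (6 genes) to 16.7 to 91.8 CPM. Macrophages are rich in lysosomes, and no marker of these lists was at 0 in all libraries. Of the leukocyte markers 0 were higher and 2 of 18 lower, of the endothelial markers 0 of 10 were called, and of the fibroblast markers 8 of 12 were lower. Of the smooth muscle and pericyte markers 3 of 8 were higher and 1 lower, and of the 3 cardiomyocyte and 6 mesothelial markers tested 0 were called. Over all genes tested, 20.5% were higher and 20.1% lower. The part of these markers in the lysosomal results was not tested.

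The core of the CLEAR element was searched in the promoters of the members. The element is known from lysosomal genes, so a raised share among the members is no independent result. The RefSeq promoter table (GRCm38.p6, 250 bases before to 50 bases after each annotated start) matched 29 of the 32 members. Its genes were not limited to those tested with TGFβ. GTCACGTG, searched on both strands, occurred in 8 of these 29 genes (27.6%) and in 2.55% of all 27025 genes of the table. By window it occurred in 8 of 34 member promoters (23.5%) and in 2.25% of all 32851. The shorter CACGTG, which lies within GTCACGTG, occurred in 11 of 29 members (37.9%) and in 8.09% of all genes, adding *Ctsf*, *Ctsl* and *Gaa*. Stretches around the match nearest the RefSeq start are shown for the 6 members with 1 RefSeq window and a match in it. They are on the strand of the gene, with capitals for the match of GTCACGTG or its reverse complement. These stretches are printed since they show the same motif in members that fell, rose or did not pass the test.
Ctsd: gcccgcgtctCACGTGACccgttgaggg
Mcoln1: gcgccccgctCACGTGACcgcggcgcat
Lamp1: tgccgactggCACGTGACcacatcacgt
Glb1: ctgcttctgaGTCACGTGgcctacagag
Naglu: caaccttcagGTCACGTGgcccgaggtc
Gla: tgagatctcgGTCACGTGagcaactctc

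The stretches lie at chr7:142387908-142387935 (minus strand, *Ctsd*), chr8:3500464-3500491 (*Mcoln1*), chr8:13159123-13159150 (*Lamp1*), chr9:114401018-114401045 (*Glb1*), chr11:101070009-101070036 (*Naglu*) and chrX:134601184-134601211 (minus strand, *Gla*). The capitals began between 28 and 196 bases upstream of the RefSeq start, nearest in *Lamp1* and farthest in *Gla*. The GENCODE gene starts further upstream for *Ctsd*, *Mcoln1* and *Naglu*, so that their capitals lie within it. For *Gla* and *Glb1* it also starts upstream of the RefSeq start, but downstream of the capitals, which therefore lie nearer to it. *Ctsa* and *Lgmn* have windows at more than one RefSeq start and held the motif in that of a downstream one. Of the 8 members with the motif, 5 were lower with TGFβ (*Ctsa*, *Lgmn*, *Glb1*, *Naglu*, *Lamp1*), 1 was higher (*Ctsd*) and 2 were not called (*Gla*, *Mcoln1*). Among the 21 matched members without it, 11 were lower, 1 was higher and 9 were not called. Of all genes tested, 20.1% were lower and 20.5% higher. The calls of *Lamp1* and *Ctsd* held in only 7 and 6 of the 13 alternative fits. A match is a description of letters and not of binding.

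The cysteine cathepsins of the set had calls in both directions, but only that of *Ctsf* held in all 13 alternative fits. These papain-like proteases cut proteins in the lysosome. Of the 8 in the set, 3 were lower (37.5%, against 20.1% of all genes tested) and 2 higher (25.0%, against 20.5%). The other 3 were not called, and the median log2 fold change of the 8 was 0.05. *Ctso* and *Ctsw*, also cysteine cathepsins, are outside the set and are given below with the other hydrolases. *Ctsf* (ENSMUSG00000083282, chr19:4855130-4860918), cathepsin F, was expressed at 39.1, 40.9 and 42.3 CPM with vehicle and at 27.3, 27.2 and 28.9 CPM with TGFβ. The groups lay far apart for their narrow spread, and the log2 fold change was -0.55 (SE 0.05, edgeR adjusted p = 0.000131). *Ctsb*, cathepsin B, had more reads, with 788, 824 and 995 CPM against 597, 618 and 756 CPM. All TGFβ libraries lay below all vehicle libraries, and library c was the highest of each group. The log2 fold change of *Ctsb* was -0.40 (SE 0.11, edgeR adjusted p = 0.0249), and the call was lost without vehicle c, TGFβ a or TGFβ b (adjusted p of 0.0634 to 0.0928). *Ctsb* shares 774 exonic bases with *Fdft1* on the opposite strand, and although the libraries were made with a stranded kit, the sources used here do not say whether the counting used strand.

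*Ctsz*, cathepsin Z, a carboxypeptidase, fell least of these, from 328 ± 23.7 to 283 ± 20.4 CPM (SD, n = 3). Its groups were separated by 1 CPM, between 307 in vehicle a and 306 in TGFβ c. The change of -0.21 on the log2 scale (SE 0.07, edgeR adjusted p = 0.0448) was not called without vehicle b, vehicle c, TGFβ a or TGFβ b (0.0924 to 0.147).

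*Ctsc* and *Ctsh* were the cysteine cathepsins of the set that rose. *Ctsc* (ENSMUSG00000030560, chr7:88278085-88310888) encodes cathepsin C, a dipeptidyl peptidase that activates granule serine proteases of leukocytes. It was expressed at 29.5, 25.6 and 43.3 CPM with vehicle and at 50.2, 42.7 and 77.1 CPM with TGFβ. The groups overlapped, since vehicle c lay just above TGFβ b, and library c was the highest of each group. The log2 fold change was 0.79 (SE 0.25, edgeR adjusted p = 0.0387), the largest of the members and the one with the largest error. It ranged from 0.50 to 1.04 with 1 library left out, and the call was lost without vehicle a, vehicle b, TGFβ a or TGFβ c (0.0683 to 0.115). *Ctsh*, cathepsin H, an aminopeptidase, gave 112, 116 and 128 CPM against 134, 141 and 148 CPM. Its groups did not overlap, the log2 fold change was 0.25 (SE 0.06, edgeR adjusted p = 0.0140), and the call was lost only without vehicle b (0.0536).

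The 3 cysteine cathepsins of the set that did not pass the test include the collagen-degrading *Ctsk*. Cathepsin K is the main collagenase of osteoclasts. *Ctsk* (ENSMUSG00000028111, chr3:95499256-95509362) was at 103, 111 and 143 CPM with vehicle and at 103, 111 and 139 CPM with TGFβ, so that the libraries of one group nearly repeated those of the other. Its log2 fold change was -0.02 (SE 0.14, edgeR adjusted p = 0.933) and changed sign with the library left out. *Ctsl*, cathepsin L, was at 1000 to 1153 CPM and 1084 to 1298 CPM, and *Ctss*, cathepsin S, a protease of antigen-presenting cells, at 25.7 to 31.4 CPM and 27.6 to 33.8 CPM. Their log2 fold changes were 0.15 and 0.12 (edgeR adjusted p of 0.188 and 0.359), and the groups of both overlapped.

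The other lysosomal proteases all changed, 3 of 4 downwards and 1 upwards, against 20.1% of all genes tested lower and 20.5% higher. *Lgmn* (ENSMUSG00000021190, chr12:102394084-102439813) encodes legumain, an asparaginyl endopeptidase that also processes cathepsins. It was expressed at 205, 218 and 229 CPM with vehicle and at 132, 150 and 161 CPM with TGFβ, without overlap. The log2 fold change was -0.56 (SE 0.08, edgeR adjusted p = 0.000985). *Ctsa*, which encodes the serine carboxypeptidase that protects β-galactosidase and neuraminidase 1, gave 391, 392 and 460 CPM against 269, 289 and 334 CPM. It fell by 0.48 on the log2 scale (SE 0.09, edgeR adjusted p = 0.00546). *Tpp1*, tripeptidyl peptidase 1, fell less, from 213, 218 and 229 CPM to 186, 185 and 190 CPM, with a log2 fold change of -0.23 (SE 0.04, edgeR adjusted p = 0.00377). *Ctsa* overlaps *Pltp* by 495 exonic bases on the opposite strand.

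*Ctsd*, the aspartic protease cathepsin D, went the other way. It was at 1139, 1120 and 1129 CPM with vehicle and at 1192, 1272 and 1297 CPM with TGFβ (ENSMUSG00000007891, chr7:142375911-142388038, minus strand). All TGFβ libraries were higher, with a fitted level of 111% of vehicle, and the log2 fold change was 0.15 (SE 0.05, edgeR adjusted p = 0.0434). The call was lost without any of vehicle a, vehicle b, vehicle c, TGFβ b or TGFβ c (0.0866 to 0.141) and under 2 other settings. Of its 75-base windows 35.8% also occur in *Gm49369*, a gene model that overlaps it on the same strand.

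**Figure D2:**
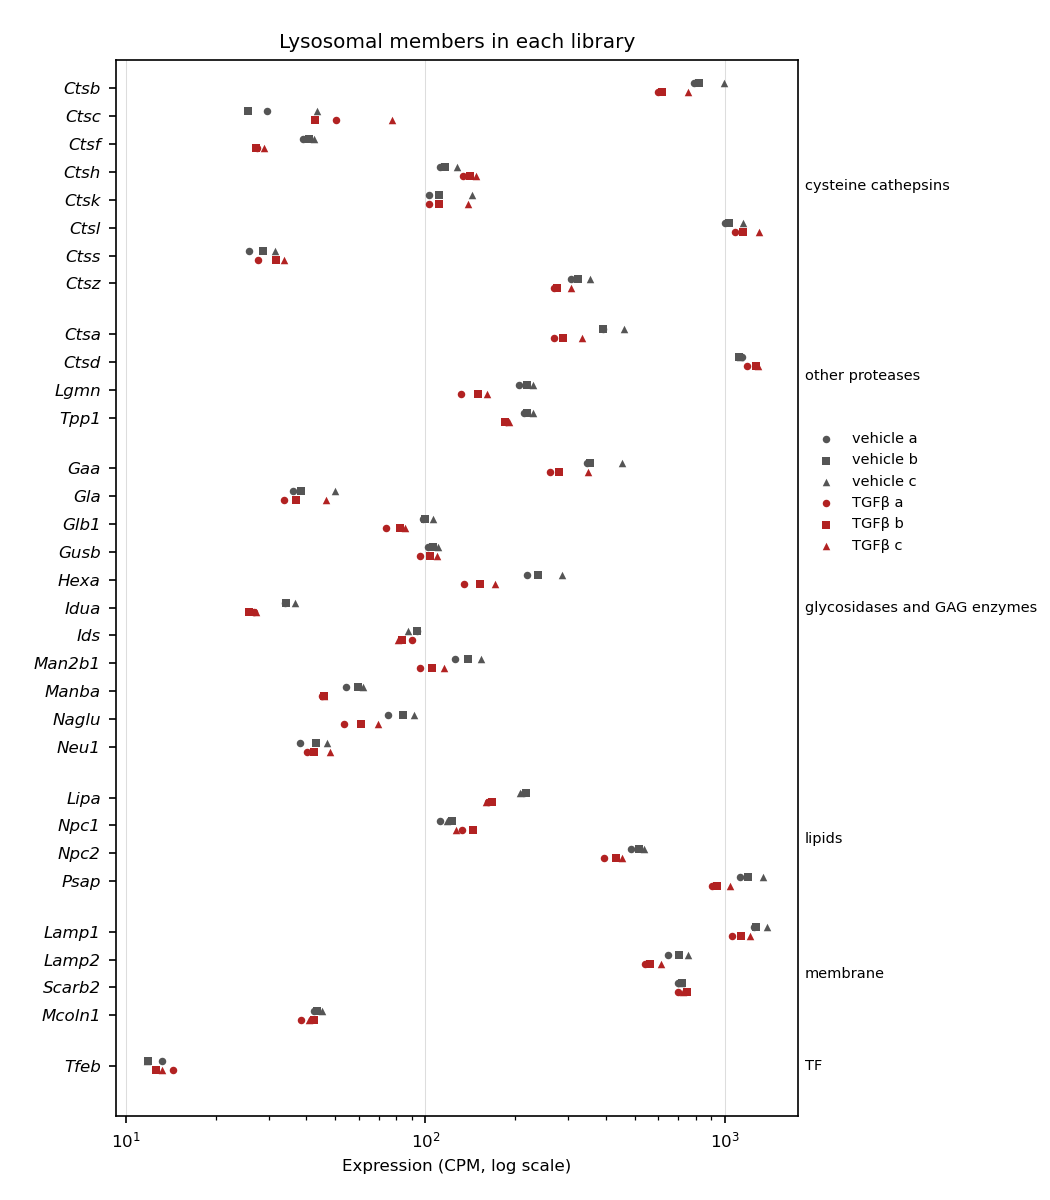
Expression of each member in each library, in CPM on a log axis, with vehicle in grey and TGFβ in red and a symbol for each library. Members span from *Tfeb*, at 11.7 to 14.3 CPM, to *Lamp1*, at 1061 to 1385 CPM, and the triangles of library c lie to the right in most rows of both groups.

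Among the glycosidases and enzymes of glycosaminoglycan breakdown, 6 of 11 were lower (54.5%, against 20.1% of all genes tested) and 0 were higher (against 20.5%). The median log2 fold change of this group was -0.36. *Hexa* (ENSMUSG00000025232, chr9:59539540-59565109) encodes the α subunit of β-hexosaminidase A, whose loss causes Tay-Sachs disease. It was expressed at 219, 238 and 285 CPM with vehicle and at 135, 152 and 171 CPM with TGFβ. The groups were well separated, and the log2 fold change of -0.70 was the largest fall of the members (SE 0.11, edgeR adjusted p = 0.00214). With 1 library left out it stayed between -0.79 and -0.58.

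*Naglu*, which removes N-acetylglucosamine from heparan sulfate, fell from 83.5 ± 8.15 to 61.3 ± 7.79 CPM (SD, n = 3). *Idua*, which removes iduronic acid from heparan and dermatan sulfate, gave 33.9, 34.2 and 36.8 CPM against 26.8, 25.7 and 27.1 CPM. Their log2 fold changes were -0.44 and -0.40 (edgeR adjusted p of 0.0104 and 0.000677), and the groups of neither overlapped. *Man2b1* and *Manba*, the α- and β-mannosidases of glycoprotein breakdown, fell by 0.40 and 0.36 on the log2 scale (edgeR adjusted p of 0.00796 and 0.00154). *Glb1*, β-galactosidase, whose activity is a common mark of senescent cells, fell from 101 ± 3.88 to 80.4 ± 5.97 CPM (SD, n = 3), a log2 fold change of -0.33 (SE 0.06, edgeR adjusted p = 0.00357). All 6 of these falls held in every one of the 13 alternative fits. *Glb1* shares 165 exonic bases with *Tmppe*, a gene on the same strand that had 1601 counts over the 6 libraries. *Idua*, with 5418 counts, shares 124 exonic bases with *Dgkq* (3243 counts) and 141 with *Slc26a1* (47 counts). Both lie on the opposite strand.

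The 5 glycosidases and sulfatases that were not called differed among themselves. *Gaa*, acid α-glucosidase, which degrades glycogen, gave 348, 355 and 453 CPM with vehicle and 260, 279 and 349 CPM with TGFβ. Only TGFβ c reached the vehicle range. Its log2 fold change of -0.38 (SE 0.13) had an edgeR adjusted p of 0.0549, which was 0.0132 without TGFβ c. *Ids*, iduronate 2-sulfatase, gave 87.6 to 94.1 CPM against 81.2 to 90.0 CPM, a log2 fold change of -0.11 (edgeR adjusted p = 0.121). *Gla*, α-galactosidase A, *Gusb*, β-glucuronidase, and *Neu1*, neuraminidase 1, had log2 fold changes of -0.09, -0.04 and 0.03 (edgeR adjusted p of 0.678, 0.615 and 0.814), with overlapping groups. *Neu1* and *Glb1* work in a complex with the product of *Ctsa*, and of these 3 genes *Ctsa* and *Glb1* fell.

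All 4 members of lipid hydrolysis and lipid export were called, 3 lower and 1 higher. Of all genes tested, 20.1% were lower and 20.5% higher. *Lipa* (ENSMUSG00000024781, chr19:34492318-34527474, minus strand) encodes lysosomal acid lipase, which hydrolyses cholesteryl esters and triglycerides. It was at 214, 217 and 207 CPM with vehicle and at 162, 167 and 159 CPM with TGFβ. The spread within each group was small, and the log2 fold change was -0.39 (SE 0.04, edgeR adjusted p = 0.000271). *Psap*, prosaposin, the precursor of the saposins that present sphingolipids to their hydrolases, gave 1125, 1194 and 1340 CPM against 910, 946 and 1043 CPM. It fell by 0.34 on the log2 scale (SE 0.08, edgeR adjusted p = 0.0121).

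The cholesterol exporters *Npc1* and *Npc2* moved apart. NPC2 binds cholesterol in the lumen and hands it to the membrane protein NPC1. *Npc2* was at 487, 519 and 537 CPM with vehicle and at 394, 433 and 455 CPM with TGFβ, a log2 fold change of -0.27 (SE 0.06, edgeR adjusted p = 0.0133). *Npc1* was at 112, 123 and 118 CPM with vehicle and at 133, 144 and 127 CPM with TGFβ, a log2 fold change of 0.20 (SE 0.06, edgeR adjusted p = 0.0266). Neither pair of groups overlapped, with all TGFβ libraries below for *Npc2* and above for *Npc1*. The *Npc1* call was lost without vehicle a, vehicle c, TGFβ a or TGFβ b (0.0593 to 0.0852), and *Npc1* shares 511 exonic bases with *Rmc1* on the opposite strand.

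Of the 4 membrane proteins, 2 were lower (against 20.1% of all genes tested) and 0 higher (against 20.5%). *Lamp2*, which also serves in chaperone-mediated autophagy, was at 649, 705 and 753 CPM with vehicle and at 540, 562 and 611 CPM with TGFβ. The groups did not overlap, and the log2 fold change was -0.30 (SE 0.07, edgeR adjusted p = 0.0115). *Lamp1* (ENSMUSG00000031447, chr8:13159161-13175338) gave 1256, 1276 and 1385 CPM against 1061, 1131 and 1211 CPM. It fell by 0.20 on the log2 scale (SE 0.07, edgeR adjusted p = 0.0406), a call that was lost without vehicle a, vehicle b, vehicle c, TGFβ a or TGFβ b (0.0527 to 0.125). *Scarb2*, which encodes LIMP-2, the receptor that carries β-glucocerebrosidase to the lysosome, was at 701 to 718 CPM and 700 to 746 CPM. *Mcoln1*, which encodes the calcium channel TRPML1, was at 42.5 to 45.1 CPM and 38.3 to 42.6 CPM with TGFβ overlapping vehicle in 1 library. Their log2 fold changes were 0.03 and -0.11 (edgeR adjusted p of 0.666 and 0.132).

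*Tfeb* (ENSMUSG00000023990, chr17:47737030-47792419) was the member with the lowest level, on the CPM scale and per kb of transcript. It was at 13.2, 11.8 and 11.7 CPM with vehicle and at 14.3, 12.6 and 13.2 CPM with TGFβ, and the groups overlapped. Its log2 fold change was 0.13 (SE 0.08, edgeR adjusted p = 0.242). TFEB is regulated largely by phosphorylation and location in the cell, which counts of RNA do not show. Of its relatives, *Mitf* fell by 0.63 (edgeR adjusted p = 0.00511), from 10.3 ± 1.68 to 6.65 ± 0.34 CPM (SD, n = 3). *Tfe3*, at 72.8 to 78.7 CPM, and *Tfec*, at 2.66 to 4.39 CPM, had log2 fold changes of 0.05 and -0.33 (edgeR adjusted p of 0.301 and 0.172), and the adjusted p of *Tfec* was 0.0389 without TGFβ b. With the trends on GC content and length taken out, *Tfe3* was called, at 0.13 (edgeR adjusted p = 0.0327). *Rragd*, which encodes RagD, a GTPase that recruits MiT/TFE factors and mTORC1 to lysosomes, was at 13.6, 15.5 and 14.5 CPM with vehicle and at 6.03, 7.16 and 5.64 CPM with TGFβ. It fell to 43.2% of vehicle, a log2 fold change of -1.21 (SE 0.10, edgeR adjusted p = 0.000105).

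Summed over the members, lysosomal reads were 10176, 10555 and 11529 CPM with vehicle and 8974, 9500 and 10304 CPM with TGFβ. They made up 1.02% to 1.15% of the scaled library size with vehicle and 0.897% to 1.03% with TGFβ. On this scale the groups overlapped in the sum, since vehicle a lay below TGFβ c. Per kb of the longest transcript, a scale on which genes can be compared, *Lamp1* (586 ± 31.1 CPM per kb, SD, n = 3), *Ctsd* (531 ± 4.26) and *Psap* (459 ± 41.4) had the highest levels with vehicle. *Tfeb* (5.22 ± 0.359), *Idua* (9.89 ± 0.436) and *Ctsc* (10.2 ± 2.89) had the lowest, with *Idua* and *Ctsc* closer than the spread of *Ctsc*. With TGFβ *Ctsd* (589 ± 25.8 CPM per kb) stood above *Lamp1* (509 ± 33.8), whose libraries did not overlap with those of *Ctsd*. *Ctsc* moved from rank 30 of 32 to rank 24. *Ctsz*, at 228 CPM per kb with vehicle, followed these 3 at rank 4 in both groups.

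The members shared an order of libraries within each group. Library c was the highest of the vehicle libraries in 26 of 32 members (81.2%, against 34.8% of all genes tested) and the highest of the TGFβ libraries in 26 (81.2%, against 36.9%). In 21 members (65.6%) c was the highest and a the lowest library in both groups, against 6.50% of all genes tested. The median member stood at 94.2%, 99.2% and 107% of its group mean in vehicle a, b and c and at 93.4%, 99.2% and 107% in TGFβ a, b and c, while the median of all genes stood at 99.7% to 100%. *Lipa*, *Npc1*, *Ids* and *Tfeb* were among the exceptions. The leukocyte and endothelial marker sums and the fibroblast sum, at 54668, 60381 and 64458 CPM with vehicle and at 51168, 54320 and 56971 CPM with TGFβ, had the same order of libraries, and their part was not tested. The summed CPM of the other hydrolases, other lysosomal membrane proteins, V-ATPase subunits and protease inhibitors, listed below, also rose from a to c in both groups. For the other hydrolases the sums were 4411, 4622 and 4985 CPM with vehicle and 3628, 3840 and 4146 CPM with TGFβ. The sums of the sorting, MiT/TFE, autophagy and collagen uptake lists did not keep this order. The headers carry no replicate number, so whether the c libraries of both groups belong together is not known.

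**Figure D3:**
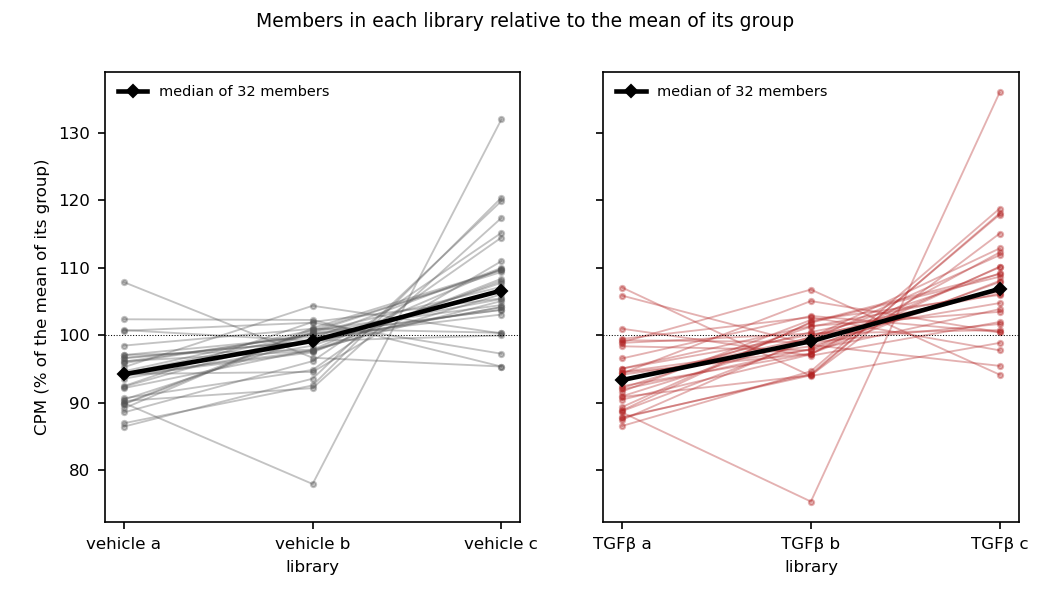
CPM of each member in each library as a percentage of the mean of its group (3 libraries each). Thin lines join the values of 1 gene, the black line gives the median of the 32 members, and the order of libraries is that of the table. The black line passes from 94.2% to 107% with vehicle and from 93.4% to 107% with TGFβ, and *Ctsc* reaches the highest values, 132% and 136%.

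Other genes of the lysosome were counted in lists that hold none of the 32 members. Of 44 other hydrolases and activators tested, 21 were lower (47.7%, against 20.1% of all genes tested) and 4 higher (9.09%, against 20.5%), with a median log2 fold change of -0.21. *Sgsh*, a sulfatase of heparan sulfate breakdown, fell from 77.9, 82.6 and 83.6 CPM to 41.4, 45.2 and 43.9 CPM (log2 fold change -0.90, SE 0.05, edgeR adjusted p = 1.35e-05). *Ctso*, cathepsin O, fell by 0.87 (edgeR adjusted p = 0.000353). Both estimates lay below that of *Hexa*. *Ctsw*, a cathepsin of T and NK cells, had 7 counts in the 3 vehicle libraries and 207 in the 3 TGFβ libraries, a ratio of 32.2 (95% counting interval 15.4 to 81.2), and remained at 2.05 to 2.68 CPM. Of 31 other lysosomal membrane proteins, 15 were lower (48.4%) and 2 higher (6.45%), with a median of -0.22. The iron transporters *Slc11a1* and *Slc11a2* and the peptide and histidine transporter *Slc15a4* fell by 0.77, 0.61 and 0.35 (edgeR adjusted p of 0.00656, 0.000403 and 0.000582). *Cd68* and *Laptm5* of this list are also on the leukocyte list. Without vehicle b 7 and without TGFβ a 9 of these membrane proteins were lower.

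Of 21 V-ATPase subunits tested, 6 were higher (28.6%, against 20.5% of all genes tested) and 1 lower (4.76%, against 20.1%), with a median log2 fold change of 0.12, and 11 were higher once trends with GC content and transcript length had been taken out. *Atp6v1g1* and *Atp6v1d*, subunits of the ATP-hydrolysing sector, rose by 0.43 and 0.24 (edgeR adjusted p of 0.000577 and 0.00255), and *Tcirg1*, the a3 subunit of the proton channel sector, fell by 0.27 (edgeR adjusted p = 0.00772). Of 12 genes of mannose 6-phosphate tagging and sorting, 3 were lower (25.0%, against 20.1% of all genes tested) and 0 higher (against 20.5%). Of these *Vps26a*, of the retromer, fell by 0.21 (edgeR adjusted p = 0.00377). The calls of *Nagpa* (-0.21, edgeR adjusted p = 0.0425) and *Gga2* (-0.13, edgeR adjusted p = 0.0456) were lost without vehicle b, vehicle c, TGFβ a or TGFβ b. That of *Gga2* was also lost without vehicle a (edgeR adjusted p up to 0.140 for *Nagpa* and 0.162 for *Gga2*). Neither was called by DESeq2, without a filter or with the trends taken out, where *Gga2* was at -0.06 (edgeR adjusted p = 0.325).

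Among regulators and partners the changes were mixed. Of 18 MiT/TFE factors and regulators, 6 were lower (33.3%, against 20.1% of all genes tested) and 2 higher (11.1%, against 20.5%). Their median log2 fold change was -0.16, and besides *Rragd* and *Mitf* the folliculin gene *Flcn* fell by 0.33 (edgeR adjusted p = 0.00103). Of 30 autophagy genes, 10 were lower (33.3%) and 3 higher (10.0%), with a median of -0.06. *Atg7*, *Optn* and *Plekhm1* fell by 0.43, 0.38 and 0.36 (edgeR adjusted p of 0.00234, 0.00639 and 0.000654). Of 5 inhibitors of lysosomal proteases tested, 2 were lower (40.0%) and 0 higher, with a median of 0.03. *Cst3*, cystatin C, an inhibitor of cysteine cathepsins, fell from 578, 576 and 615 CPM to 404, 436 and 431 CPM (log2 fold change -0.48, SE 0.05, edgeR adjusted p = 0.000294). *Serpinb6a* fell by 0.19 (edgeR adjusted p = 0.00766). Of 6 genes of collagen uptake and cleavage, 2 were lower (33.3%) and 0 higher, with a median log2 fold change of 0.12. The 4 that were not called had log2 fold changes of 0.11 to 0.16. *Fap* and *Mrc1* fell by 1.28 and 1.07 (edgeR adjusted p of 0.00813 and 0.00107). *Mrc1*, at 2.08 to 5.49 CPM, is also on the leukocyte marker list.

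**Figure D4:**
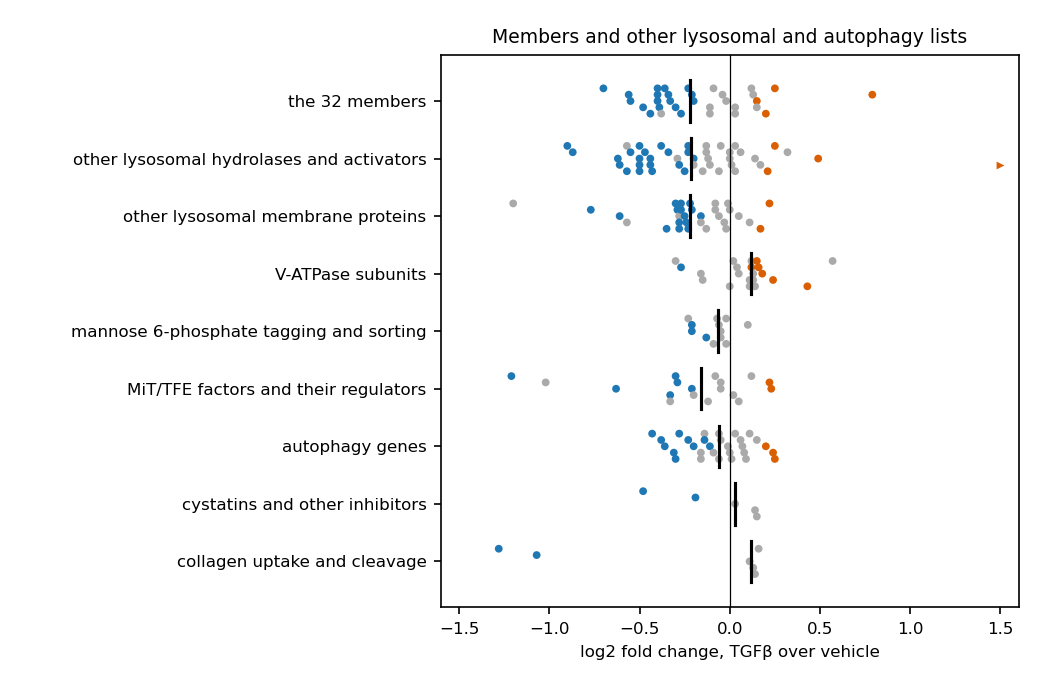
Change of the tested genes of each list on the log2 scale, as TGFβ over vehicle, with blue for lower, orange for higher and grey for genes not called. Black bars are medians, and the arrowhead marks *Ctsw*, whose value of 4.93 lies beyond the axis. The bars of the members and of the other hydrolases lie at -0.22 and -0.21 and that of the V-ATPase at 0.12.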

How the data were processed

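RNA was measured in 3 vehicle and 3 TGFβ libraries. Per the file headers and values, the deposited table holds the count of reads per gene in each library, which the authors had not normalized. Per the labels the genome build was mm10 and DESeq2 was used. The methods name a stranded mRNA kit. The aligner, the counter, the annotation and the use of strand in counting are not given in the sources used here. The table also holds the authors' own comparison (mean normalized signal, log2 fold change, its error, a test statistic, p-value and adjusted p), which was not used. Headers name only the group, so libraries are called a, b and c in the order of the table.

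Counts were analysed with edgeR 4.0.16 in R 4.3.3: TMM factors, filterByExpr on the group, the quasi-likelihood test and Benjamini-Hochberg adjustment over the 14334 genes kept of 25140. A gene is called at an adjusted p under 0.05. The standard error is the log2 fold change over the square root of F. CPM are counts per 1000000 of the TMM-scaled library size. Exact permutation tests of 3 libraries against 3 cannot go below p = 0.1, so none is quoted per gene. Alternatives were DESeq2 size factors or upper quartile scaling in edgeR, DESeq2 1.42.0, limma-voom (limma 3.58.1), no filter, 1 CPM in 3 libraries, taking out trends with GC content and length, each library left out, an adjusted p of 0.01 and a log2 fold change beyond 1. Levels per kb used the longest GENCODE M21 transcript, and alternatively exon unions or, added after the data were seen, the longest coding transcript. The main edgeR fit, DESeq2, limma-voom and the edgeR fit with trends taken out were tested on simulated counts.

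The members and lists were chosen with earlier results of these data known. All 32 members are named. From each other list at most 3 called genes are named, those with the largest change that average 1 CPM or more and have separate groups, with the MiT/TFE factors, TGFβ targets and defining cell markers in addition. Some gene results that this rule takes in are not reported here.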

Additional observations from a re-analysis of the deposited data

How the results depend on the processing

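Of the 32 members, 16 to 22 were called over the 13 alternative fits, and 14 to 18 were lower. In all, 4489 to 6211 of the genes kept in each fit were called. At an adjusted p of 0.01, 3595 of the 14334 genes tested and 10 of the 32 members were called (10 lower, 0 higher). Over both directions together, the member share was then closer to that of all genes than at 0.05. There, 65.6% of members and 40.7% of all genes were called. All genes were not split by direction at 0.01, so the 10 lower members have no matching share. Requiring more than 1 on the log2 scale left 971 genes and 0 members (0 lower, 0 higher), as a stricter rule must give fewer. With 1 library left out, members higher ranged from 1 to 2, and other lysosomal membrane proteins lower from 7 to 12. With the trend on GC content and length removed, 7 of these membrane proteins were lower and 11 V-ATPase subunits higher, and the cause was not tested. Among members not called, *Ctsk* and *Gusb* changed sign without the trend (0.01 and 0.01), and 4 ranged across 0 with 1 library left out: *Ctsk* from -0.16 to 0.13, *Gla* from -0.24 to 0.07, *Gusb* from -0.09 to 0.01 and *Neu1* from -0.05 to 0.10. *Ctsc* was not called by DESeq2, *Ctsd* with upper quartile scaling or 1 CPM in 3 libraries, and *Ctsz* and *Lamp1* without the trend, while *Gaa* was called by DESeq2 and without a filter. Level per kb depends on the length chosen. With vehicle *Ctsh* was at 43.2 CPM per kb of its longest transcript, 73.3 of its longest coding transcript and 26.4 of its exon union. *Lamp1*, *Ctsd* and *Psap* kept ranks 1 to 3 in both groups with each length. *Ctsc* moved from rank 30 to 25 by coding transcript and from 31 to 27 by exon union. By exon union *Idua* was at rank 28 with vehicle and *Mcoln1* at rank 30. No paired analysis was possible because the count columns carry no replicate numbers.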
